A study of Mus musculus with 6 samples.

Results

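The genes Zfp36, Zfp36l1, Zfp36l2, Elavl1, Hnrnpd, Khsrp, Ddx6, Stau1 and Pum2, which encode RNA-binding regulators of mRNA decay and storage, were followed in mouse muscle stem cells with and without deletion of Opa1. They were taken by symbol as a fixed set of 9 out of 49652 gene rows. All 9 were matched to 1 gene each, and all 9 passed the filter on low counts that left 18832 genes for testing. The series holds bulk RNA-seq of 6 libraries from uninjured hindlimb muscle of mice aged 8 to 10 weeks. Satellite cells (muscle stem cells) were sorted as positive for alpha-7 integrin and VCAM and negative for Sca1, CD45 and CD31. The genotype is given as OPA1-Pax7-CreERT2 in both groups, Cre negative in WT (n = 3 libraries) and Cre positive in KO (n = 3 libraries). Both groups received tamoxifen by gavage on 5 days and were sampled 3 days later, so they share the drug, and the presence of Cre cannot be told apart from the loss of Opa1. The Cre is tamoxifen-inducible and driven by Pax7, the gene that marks these cells. The labels do not tie a library to a number of animals, and the p-values therefore measure only the spread between these libraries. That spread may be technical in part. The Y-linked gene Ddx3y, given below, differed widely between libraries of each genotype, so the spread is not technical alone.

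Decay and storage proteins act on mRNA that is already made. AU-rich elements, runs of A and U in the 3′ untranslated region (3′ UTR), are bound by ZFP36 proteins, which recruit the CCR4-NOT deadenylase and speed decay, and by HuR, the product of Elavl1, which stabilises many of the same transcripts. Quiescent muscle stem cells carry mRNAs of myogenic regulators such as Myod1 and Myf5 before they divide or differentiate, and decay and translational repression are known to limit their use. Tristetraprolin, the product of Zfp36, and Staufen1, the product of Stau1, have both been described as acting on Myod1 mRNA in these cells.

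The letters such proteins recognise are shown first, because some of the regulators carry them in their own mRNAs. Among these are the Zfp36 family, which varied most between libraries, and Elavl1, whose spread lay near that of the median gene. Any part of the letters in that spread was not tested. The AU-rich nonamer TTATTTATT, searched on the sense strand of the longest annotated 3′ UTR, was found in 7.58% of 21173 mouse genes with such a region. It was found in 4 of the 9 regulators, once each in Zfp36, Zfp36l1 and Zfp36l2 and at 8 positions, counting overlaps, in Elavl1. The shorter core TATTTAT, which lies inside the nonamer, was found in 27.4% of genes, 3 times in each Zfp36 family gene, 8 times in Elavl1 and once in Pum2. TGTANATA, the letters bound by Pumilio proteins, was found in 23.1% of genes, with 2 matches each in Ddx6 and Pum2. Hnrnpd, Khsrp and Stau1 held none of these 3 motifs. Longer regions hold more chance matches, and the 3′ UTRs of the regulators other than Zfp36 (774 bases) ran from 1642 to 5886 bases, with 4218 in Elavl1, against a median of 1084 bases over all genes. Among transcripts of the list of known or textbook targets described below, Fos held the nonamer, Myod1 the shorter core and 1 TGTANATA match, Myf5 4 TGTANATA matches, Cdkn1a 1 TGTANATA match, and Myog none. The sites follow on the gene's strand, from GENCODE transcripts on GRCm38, with the motif in capitals and T for U.
Zfp36 (chr7:28376953-28376977, minus strand): tgacgactTTATTTATTgtattaag
Zfp36l1 (chr12:80108169-80108193, minus strand): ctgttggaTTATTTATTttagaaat
Zfp36l2 (chr17:84184916-84184940, minus strand): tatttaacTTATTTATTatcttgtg
Elavl1 (chr8:4285786-4285810, minus strand, 1 of the 8 positions): aaaattatTTATTTATTtatttatt
Fos (chr12:85477105-85477129, plus strand): ttttcaatTTATTTATTaagatgga
Myod1, AU-rich core (chr7:46378971-46378993, plus strand): ttgggctaTATTTATctcccagg
Myod1, Pumilio letters (chr7:46378927-46378950, plus strand): tctattcgTGTAAATAagagttgc
Myf5, Pumilio letters (chr10:107483899-107483922, minus strand): ttttcggtTGTAAATActgtcttg
Pum2, Pumilio letters (chr12:8750157-8750180, plus strand): tatagagaTGTATATAgaattata
A match is a description of the letters and does not show that a protein binds there.

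The libraries held 41410136 to 56606886 reads counted in genes. Opa1, which checks the labels, was at 68.2, 31.4 and 68.8 CPM (read counts scaled to library size, with the TMM method) in WT replicates 1 to 3 and at 17.5, 34.4 and 27.1 CPM in KO replicates 1 to 3. Replicate 2 of WT fell within the range of the KO libraries, so it is named below as the library labelled WT replicate 2. Opa1 had a log2 fold change of -1.09 (SE 0.37), with an exact two-sided permutation p of 0.2, the smallest possible being 0.1 with 3 libraries in each group. Leaving out that library gave -1.38 (SE 0.29). By edgeR's quasi-likelihood test on all 6 libraries the unadjusted p of Opa1 was 0.0215 and the adjusted p 0.99998. The deleted gene was thus itself not called at an adjusted p under 0.05. The muscle stem cell markers fixed for this check were all present, with Chodl at 2449 to 5869 CPM and Sdc4 at 1045 to 1903 CPM. Of 8 leukocyte markers, 5, among them Ptprc, stayed under 1 CPM in every library, while endothelial markers summed to 99.3 to 184 CPM, most of it Tek, and mature fibre markers to 160 to 575 CPM. Tek was at 77.8 to 109 CPM, whereas the mean log2 CPM of the endothelial markers ran from 0.60 in WT replicate 3 to 3.69 in KO replicate 3. Fibro-adipogenic markers summed to 716 to 1343 CPM, most of it Dpt, smooth muscle and pericyte markers to 433 to 1114 CPM, most of it Acta2, Schwann cell markers to 370 to 807 CPM, most of it Pmp22, tenocyte markers to 7.65 to 16.2 CPM and erythroid markers to 33.0 to 422 CPM. In bulk samples, fewer cells of a type and less RNA per cell cannot be told apart.

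None of the 9 regulators differed between KO and WT beyond the spread between libraries. In the quasi-likelihood test of edgeR, 0 of 9 had an adjusted p under 0.05, with the adjusted p at 0.99998 for each, and 0 of 9 had an unadjusted p under 0.05. DESeq2 and limma voom also called 0 of the 9. Over all 18832 genes edgeR called 0 genes (0.0%) and 393 (2.09%) had an unadjusted p under 0.05, limma voom called 0, and DESeq2 called 25 of the 21793 genes to which it gave an adjusted p (0.115%). The KO and WT libraries overlapped for every one of the 9, so groups did not overlap for 0 of 9, where 6.55% of all genes had groups that did not. Fold changes were positive for 6 regulators and negative for 3, with a median of 0.14 on the log2 scale beside 0.01 over all genes tested. The regulators varied to very different degrees among libraries of 1 genotype, with Zfp36 at one end and Stau1 at the other.

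**Figure D1:**
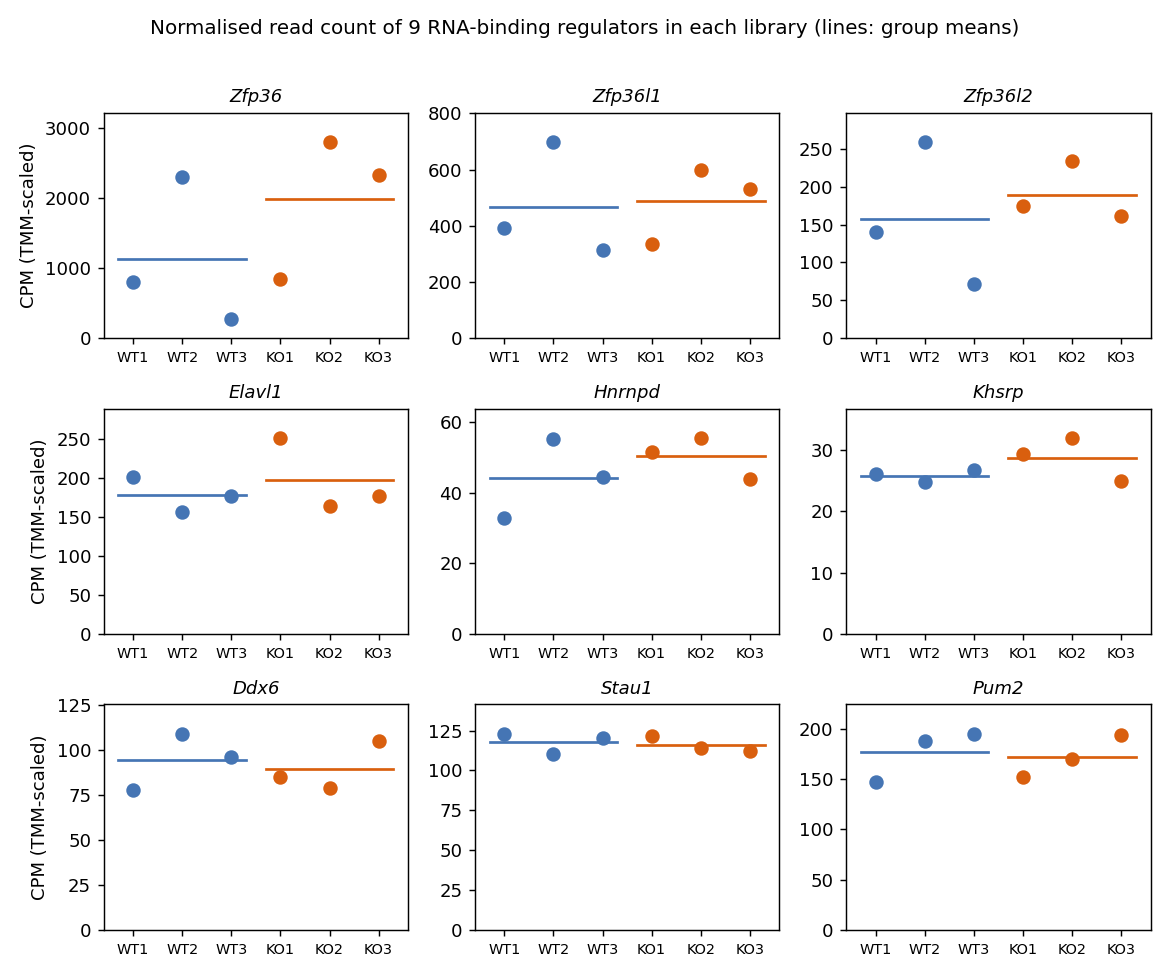
Normalised read count (CPM, TMM-scaled, linear axis from 0) of each regulator in WT1 to WT3 (blue) and KO1 to KO3 (orange), with a line at the mean of each group. Zfp36 ranged from 281 to 2792 CPM with WT and KO libraries intermixed, while Stau1 stayed between 110 and 123 CPM.

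Zfp36 (GRCm38 chr7:28376784-28380253, minus strand) encodes tristetraprolin, a zinc finger protein whose own gene is switched on within minutes by growth factors and stress. It was at 808, 2303 and 281 CPM in WT replicates 1 to 3 and at 846, 2792 and 2320 CPM in KO replicates 1 to 3. The library labelled WT replicate 2 stood with KO replicates 2 and 3, WT replicate 1 stood next to KO replicate 1, and WT replicate 3 was the lowest. The highest library exceeded the lowest 9.92-fold over all 6, 8.18-fold within WT and 3.3-fold within KO. The mean was 1986 ± 1016 CPM in KO and 1131 ± 1049 CPM in WT (SD, n = 3 each), a log2 fold change of 0.81 (SE 0.75), and the 95% interval ran from 0.513-fold to 6.02-fold. The fold change depended on single libraries, at 0.35 with WT replicate 3 left out and 1.86 when the library labelled WT replicate 2 was left out instead.

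Zfp36l1 (GRCm38 chr12:80107754-80113013, minus strand) encodes a paralog with the same pair of zinc fingers and the same AU-rich target letters. Its WT libraries were at 391, 698 and 315 CPM and its KO libraries at 337, 600 and 532 CPM. The library labelled WT replicate 2 was the highest and WT replicate 3 the lowest, so the KO libraries lay wholly inside the WT range. On the log2 scale KO differed from WT by 0.07 (SE 0.34, 95% interval -0.74 to 0.87). On the other strand the annotation places the noncoding gene Gm26669 over 55.9% of the exon bases of Zfp36l1. That gene is not analysed here, and no source used here gives the strand setting of the counting. Whether the Zfp36l1 counts include or leave out reads of the shared stretch is therefore not known, which also bears on its level per length and its share of the family.

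Zfp36l2 (GRCm38 chr17:84183931-84187947, minus strand) encodes another paralog with such zinc fingers. It was at 141, 258 and 71.7 CPM in the WT libraries and 174, 233 and 161 CPM in the KO libraries. Again the library labelled WT replicate 2 was the highest and WT replicate 3 the lowest. On the log2 scale KO differed from WT by 0.27 (SE 0.43, 95% interval -0.74 to 1.28), and it became -0.08 when WT replicate 3 was left out and 0.83 when the library labelled WT replicate 2 was.

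Leaving out the library labelled WT replicate 2 changed the picture for the Zfp36 family more than for the other regulators, although no call resulted. Zfp36 then averaged 1986 CPM in KO against 545 CPM in WT replicates 1 and 3, a log2 fold change of 1.86 (SE 0.66, 95% interval 0.26 to 3.47). By edgeR's quasi-likelihood test the unadjusted p was 0.0296 and the adjusted p 0.9999. For Zfp36l2 the log2 fold change was 0.83 (SE 0.33), with an unadjusted p of 0.0448 and an adjusted p of 0.9999 in edgeR. Groups then did not overlap for Zfp36 and Zfp36l2, both higher in KO, or 2 of the 9. Of all 19929 genes tested, 8.41% had KO wholly above WT and 3.08% had an unadjusted p under 0.05 in edgeR. The library left out was the highest of WT for both genes, so its removal favours such a separation. For Zfp36 the separation was narrow, with KO replicate 1 at 846 CPM and WT replicate 1 at 808 CPM. For Zfp36l2 it was KO replicate 3 at 161 CPM and WT replicate 1 at 141 CPM. Zfp36l1 stood at 0.47 (SE 0.28) and still overlapped. The other 6 regulators had log2 fold changes of -0.07 to 0.38 in that fit.

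**Figure D2:**
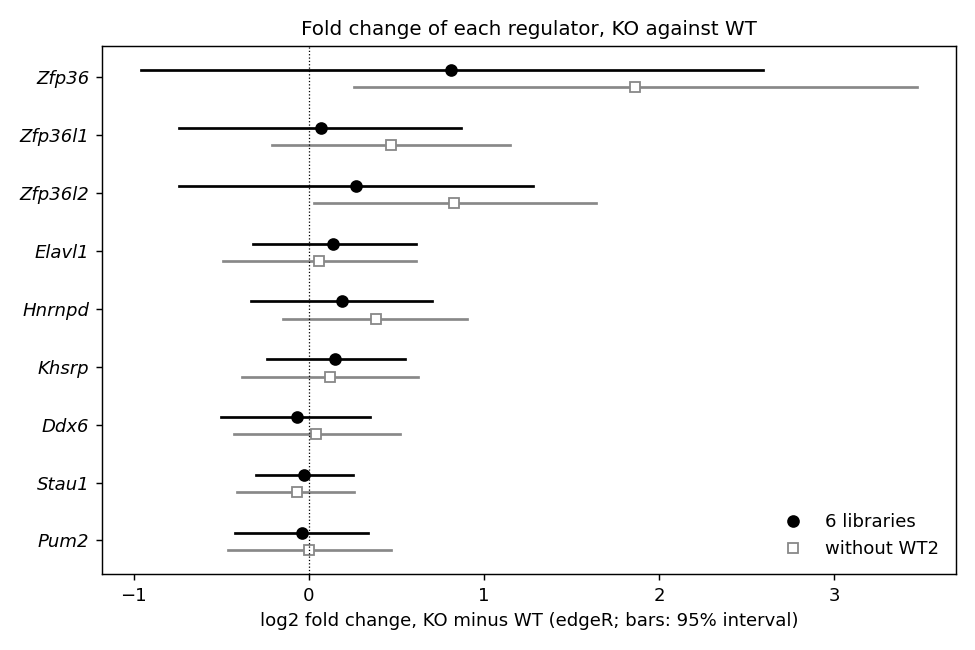
Log2 fold change of each regulator, KO minus WT, with its 95% interval from edgeR, for all 6 libraries (black circles) and without the library labelled WT replicate 2 (open grey squares, WT2). All intervals of the 6-library fit span 0; without that library the intervals of Zfp36 (0.26 to 3.47) and Zfp36l2 (0.03 to 1.64) lie above 0, and neither gene passes adjustment over all genes.

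The libraries that were high in Zfp36 were also high in immediate early genes. Zfp36 itself is not on the list of 26 genes of tissue dissociation and immediate early response, whose mean log2 CPM stood at 6.36, 7.73 and 5.75 in the WT libraries and 6.41, 7.84 and 7.82 in the KO libraries. That gives the library labelled WT replicate 2 with KO replicates 2 and 3 above the other 3 libraries, and WT replicate 3 lowest, as for Zfp36. On this list 22 of 26 fold changes were positive with a median of 0.56. Over all genes tested 9599 of 18832 were positive, with a median of 0.01. The 26 genes rest on the same 6 libraries, so their signs are not independent. By edgeR the list had 0 members called and 0 at an unadjusted p under 0.05. Socs3, a feedback inhibitor of cytokine signalling, and Gadd45b, a stress-response gene, had the smallest p on it, with log2 fold changes of 1.40 (SE 0.83) and 0.70 (SE 0.37). Cell cycle genes went the other way across the libraries, with a list mean of 4.79, 1.73 and 4.59 in the WT libraries and 5.73, 2.27 and 2.17 in the KO libraries, and the fold changes of Mcm4 and Mcm3, helicase subunits of DNA replication, were 0.39 (SE 0.32) and 0.59 (SE 0.62). The cell cycle list had 0 of 26 called by edgeR and 0 at an unadjusted p under 0.05, with 20 positive fold changes and a median of 0.19. The share of reads without a feature was 11.15%, 16.27% and 14.64% in the WT libraries and 11.57%, 15.45% and 17.02% in the KO libraries. With that share as a covariate the log2 fold change of Zfp36 was 0.61 and that of Zfp36l1 -0.03. Xist, expressed from the inactive X of females, was at 0.0209 CPM in the library labelled WT replicate 2. The other 5 libraries had it at 244 to 508 CPM. The Y-linked gene Ddx3y was at 226 CPM in the library labelled WT replicate 2. It was at 23.3, 22.9 and 90.2 CPM in WT replicate 3, KO replicate 2 and KO replicate 3, which also held Xist. WT replicate 1 and KO replicate 1 had 0.0354 and 0.141 CPM of Ddx3y. The balance of these genes thus varied within both genotypes. Leukocyte markers, low throughout, summed to 8.08, 17.5 and 8.79 CPM in the WT libraries and 7.13, 17.2 and 19.9 CPM in the KO libraries, with 5 of 8 under 1 CPM in every library. On the mean log2 CPM used for the early genes the leukocyte list stood at -0.59, 0.03 and -0.35 in the WT libraries and -0.66, 0.90 and 1.19 in the KO libraries, high in the libraries that were high in Zfp36 on either measure. Tenocyte markers summed to 12.8, 15.3 and 7.65 CPM in the WT libraries and 8.09, 14.6 and 16.2 CPM in the KO libraries, with Tnmd under 1 CPM throughout, while their mean log2 CPM was lower in KO replicate 2 (0.31) than in WT replicate 1 (0.38). Rgs5, a pericyte marker, was at 56.1, 144 and 65.6 CPM in the WT libraries and 39.4, 110 and 142 CPM in the KO libraries, high where Zfp36 was high, whereas Acta2 was lowest in those libraries, at 260 to 313 CPM against 504 to 981 CPM in the others. Mature fibre markers were highest in the library labelled WT replicate 2 (575 CPM) and KO replicate 3 (437 CPM). The mean log2 CPM of endothelial and of Schwann cell markers was lowest in WT replicate 3 (0.60 and 1.63), as for Zfp36. In WT replicate 1 these means (3.48 and 3.60) stood above those in KO replicate 2 (2.78 and 3.41), unlike Zfp36. The part of these measures in the spread of the Zfp36 family was not tested.

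**Figure D3:**
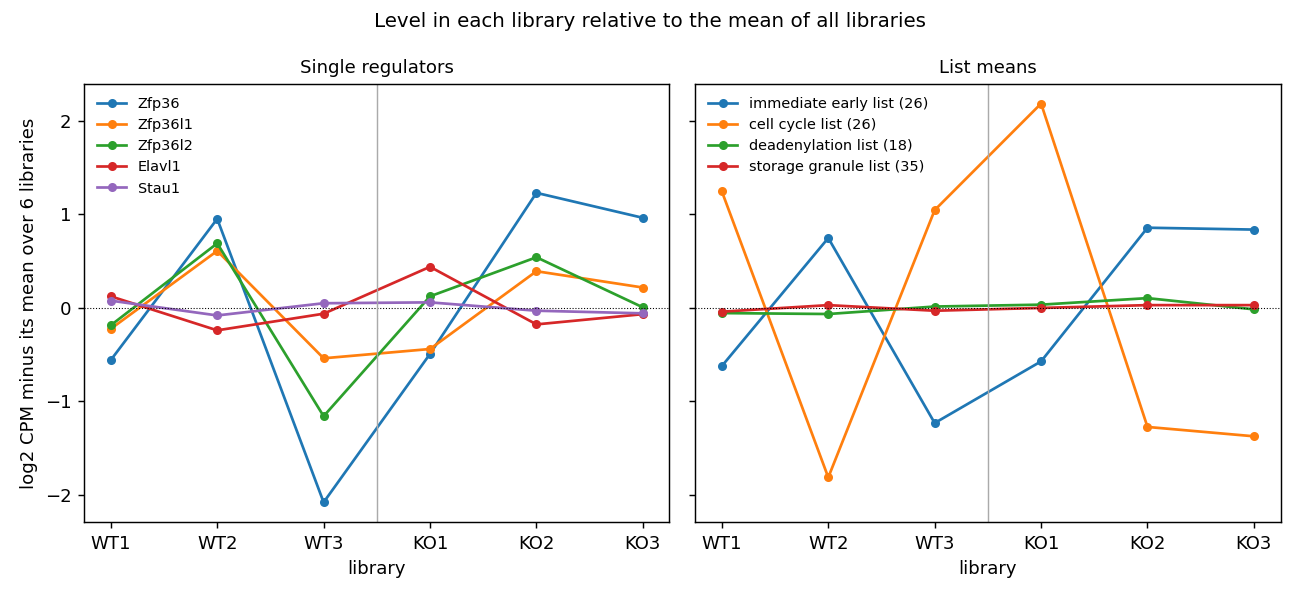
Level in each library on a log2 scale, minus its mean over the 6 libraries, for 5 single regulators (left) and for the mean of 4 gene lists (right); lines join libraries for legibility only. Zfp36 and the immediate early list are high in WT2, KO2 and KO3, the cell cycle list is low in those libraries, and the deadenylation and storage granule lists stay near 0.

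The genes most like Zfp36 across libraries were themselves immediate early transcription factors. Among 5991 other genes whose mean log2 CPM was 5 or more, Fos (Pearson r = 0.995) and Nr4a1 (r = 0.992) had the closest profiles over the 6 libraries. Fos was at 3440, 7266 and 1365 CPM in the WT libraries and 2970, 8189 and 7987 CPM in the KO libraries. The libraries fall into sets of high and low Zfp36, and the pair was picked as the closest of all genes compared, so these r values describe the 6 libraries and carry no test. The closest profiles to Zfp36l1 were those of Adnp and Ankrd29 (r = 0.989 and 0.988) and to Zfp36l2 those of Dixdc1 and Rabggta (0.990 and 0.975). Zfp36 correlated with Zfp36l1 at r = 0.91 and with Zfp36l2 at r = 0.90 over the 6 libraries, and Stau1 with Zfp36l1 at r = -0.91, which describes the same set of libraries.

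The promoter of Zfp36 is shown because its level moved with those early genes. RefSeq windows of 250 bases before and 50 after the start (GRCm38.p6) were found for 7 of the 9, Zfp36, Zfp36l1, Elavl1, Hnrnpd, Khsrp, Stau1 and Pum2. Each was searched on both strands for TGACGTCA (cyclic AMP response), TGANTCA (AP-1), the CArG box of serum response factor, TTCNNNGAA (STAT factors) and GCGTGGGCG (EGR factors). The Zfp36 window held a CArG box, 58 bases before the start, and a TTCNNNGAA match, 17 bases before it, which do not overlap and stand in capitals here. These distances are from the RefSeq start. The whole window lies inside the GENCODE span of the gene, whose 5′ end is at 28380253, so the annotations place the start differently.
Zfp36 promoter (chr7:28379179-28379478, minus strand): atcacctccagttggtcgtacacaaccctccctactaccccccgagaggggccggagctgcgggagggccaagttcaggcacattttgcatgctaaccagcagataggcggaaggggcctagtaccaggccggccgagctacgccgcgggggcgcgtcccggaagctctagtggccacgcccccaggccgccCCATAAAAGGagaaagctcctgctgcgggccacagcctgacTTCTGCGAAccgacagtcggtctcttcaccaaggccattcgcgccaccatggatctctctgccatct
Of 32851 mouse promoter windows of this length, 1.63% held a CArG box and 8.3% held TTCNNNGAA. The Zfp36l1 window held 1 TGANTCA match (in 7.81% of windows) and the Hnrnpd window 1 CArG box. No other window of the 7 genes held any of the 5 motifs, which includes TGACGTCA (1.79% of windows) and GCGTGGGCG (0.612%) in all 7.

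Elavl1 (GRCm38 chr8:4285382-4325413, minus strand) encodes HuR, which stabilises transcripts with AU-rich elements and in muscle cells is known to act on Myod1, Myog and Cdkn1a. It was at 202, 157 and 177 CPM in the WT libraries and 251, 164 and 177 CPM in the KO libraries. KO replicate 1 was the highest and the library labelled WT replicate 2 the lowest, and the groups overlapped. The mean was 197 ± 47.1 CPM in KO and 179 ± 22.5 CPM in WT (SD, n = 3 each). The log2 fold change was 0.14 (SE 0.20), the 95% interval ran from 0.800-fold to 1.52-fold, and without KO replicate 1 the sign turned, at -0.07. Its closest profiles were those of Adrm1 and Tm9sf1 (r = 0.994 and 0.991 over 6 libraries).

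Per length of exon, Zfp36 mRNA stood far above that of Elavl1, by a ratio that varied between libraries. In reads per kilobase of exon, scaled like CPM (RPKM, on the union of annotated exons), Zfp36 was at 81.1 to 805 and Elavl1 at 15.1 to 24.2. Zfp36 exceeded Elavl1 by a factor of 12.0, 43.9 and 4.74 in the WT libraries and 10.1, 50.9 and 39.2 in the KO libraries. The union length of Elavl1 sums exons of several transcripts, and with the longest coding length used for both genes the factor ranged from 1.62 in WT replicate 3 to 17.4 in KO replicate 2. By mean RPKM on union exon length Zfp36 ranked 88th of 13509 protein-coding genes tested, Zfp36l1 273rd and Zfp36l2 1071st. Pum2 (24.0 RPKM), Stau1 (19.3) and Elavl1 (18.1) came next, then Ddx6 (11.4), Hnrnpd (6.42) and Khsrp (6.31). The order depended on the length used: on the longest coding length Elavl1 (192) stood above Zfp36l2 (119), Stau1 (78.7) and Pum2 (54.5), and on the longest transcript Elavl1 and Stau1 (32.7 each) stood above Pum2 (27.6). Over the 6 libraries the ranges on union exon length of the neighbours Zfp36 and Zfp36l1, Zfp36l2 and Pum2, Stau1 and Elavl1, and Hnrnpd and Khsrp overlapped, while Ddx6, at 9.69 to 13.6 RPKM, lay apart from both of its neighbours.

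Zfp36 provided most of the family's mRNA in 5 of 6 libraries. Its share of the summed RPKM of Zfp36, Zfp36l1 and Zfp36l2 was 57.7%, 68.4% and 39.2% in the WT libraries and 60.1% to 75.1% in the KO libraries. In WT replicate 3 Zfp36l1 was the largest at 50.9%, against 18.7% to 32.4% elsewhere. Zfp36l2 supplied 5.11% to 12.2%.

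Hnrnpd (chr5:99955935-99978938, minus strand) and Khsrp (chr17:57021051-57031522, minus strand) encode AUF1 and KSRP, which bind AU-rich elements and promote decay of many of the transcripts that carry them. Hnrnpd was at 32.9, 55.2 and 44.5 CPM in the WT libraries and 51.4, 55.4 and 44.0 CPM in the KO libraries. WT replicate 1 was low and the other 5 libraries lay close together. On the log2 scale KO differed from WT by 0.19 (SE 0.22, 95% interval 0.795-fold to 1.63-fold), and without WT replicate 1 it was 0.01. Khsrp was at 26.1, 24.7 and 26.7 CPM in the WT libraries and 29.3, 31.9 and 25.0 CPM in the KO libraries. KO replicates 1 and 2 were above every WT library and KO replicate 3 was not. Its log2 fold change was 0.15 (SE 0.17, 95% interval 0.844-fold to 1.47-fold). The nearest profiles were those of Mcmbp and Lamb1 for Hnrnpd (r = 0.955 and 0.952) and of Rnf41 and Furin for Khsrp (0.975 and 0.959).

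Ddx6 (chr9:44604892-44640731, plus strand), Stau1 (chr2:166947549-166996299, minus strand) and Pum2 (chr12:8674134-8752581, plus strand) act in storage and translational repression, and their mRNAs differed by at most 1.40-fold between any 2 libraries. Ddx6, an RNA helicase of P-bodies that links repression to decapping, was at 77.9, 109 and 96.1 CPM in the WT libraries and 85.2, 78.6 and 105 CPM in the KO libraries, and the groups covered almost the same range. Stau1, a double-stranded RNA-binding protein, was at 123, 110 and 121 CPM in the WT libraries and 121, 114 and 112 CPM in the KO libraries, where the highest library exceeded the lowest 1.12-fold. Pum2, a Pumilio repressor, was at 148, 188 and 195 CPM in the WT libraries and 152, 170 and 193 CPM in the KO libraries, with replicate 1 the lowest of each genotype. None of the 3 separated the groups. Log2 fold changes were -0.07 (SE 0.18) for Ddx6, -0.03 (SE 0.12) for Stau1 and -0.04 (SE 0.16) for Pum2. The 95% intervals, from 0.708-fold to 1.27-fold, from 0.811-fold to 1.19-fold and from 0.747-fold to 1.26-fold, all span no change, and that of Stau1 was the narrowest of the 9. The nearest profiles were those of Zfp317 and 6030458C11Rik for Ddx6 (r = 0.993 and 0.988), Atp6v1a and Lman2 for Stau1 (0.998 and 0.990) and Mocs2 and Nosip for Pum2 (0.999 and 0.991).

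The Zfp36 family had the widest spread between libraries of 1 genotype. The SD of log2 CPM within groups was 1.26 for Zfp36, larger than for 99.4% of the 6000 genes whose mean log2 CPM was 5 or more. It was 0.68 for Zfp36l2 and 0.52 for Zfp36l1, larger than for 96.2% and 92.5%. Hnrnpd (0.29), Elavl1 (0.27), Ddx6 (0.23) and Pum2 (0.20) lay near the median gene, which had 0.23. Khsrp had 0.13, and Stau1 at 0.07 varied more than only 2.38% of these genes.

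**Figure D4:**
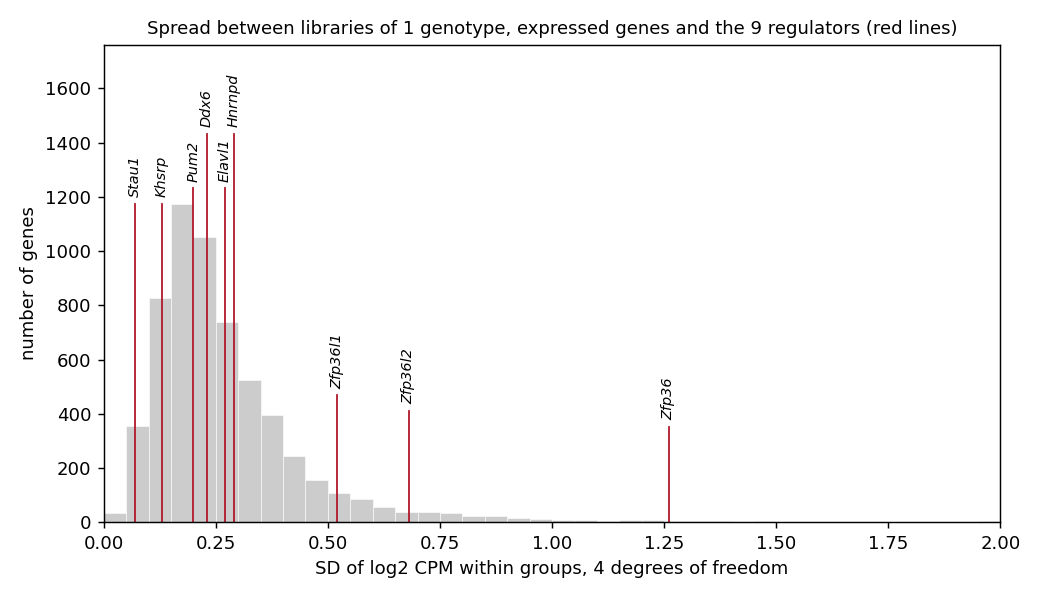
Number of genes (bars, 6000 genes whose mean log2 CPM was 5 or more) by the SD of log2 CPM within groups; the last bar also holds genes above the axis. Red lines mark the 9 regulators, with Stau1 at 0.07 on the left and Zfp36 at 1.26 on the right.

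Transcripts that these proteins are known to bind did not separate the genotypes either. The list of 27 such transcripts had 23 tested, 15 positive and 8 negative, with a median of 0.17, and edgeR called 0 with 0 at an unadjusted p under 0.05. Of the 27, 6 stayed under 1 CPM in every library, Mmp9, Twist1, Tnf, Il6, Ptgs2 and Csf2. Fos, Ier3, Dusp1, Btg2 and Socs3 also stand on the immediate early list. Myod1, the myogenic determination factor, was at 588, 358 and 163 CPM in the WT libraries and 669, 442 and 279 CPM in the KO libraries. WT replicate 3 was lowest for Myod1 as for Zfp36, and replicate 1 was the highest in each genotype. Myog, the differentiation factor, was at 125, 14.6 and 169 CPM in the WT libraries and 276, 24.4 and 22.8 CPM in the KO libraries, low in the 3 libraries that were high in Zfp36. Myf5, the other determination factor, was at 1046, 1275 and 1343 CPM in the WT libraries and 763, 990 and 1216 CPM in the KO libraries, and its groups overlapped. Log2 fold changes were 0.33 (SE 0.49) for Myod1, 0.07 (SE 1.16) for Myog, -0.30 (SE 0.20) for Myf5 and 0.67 (SE 0.62) for Fos. Cdkn1a, the cell cycle inhibitor p21, and Mcl1, a survival protein of the BCL2 family, had the smallest p on the list, at 0.68 (SE 0.37) and 0.33 (SE 0.16). The mean log2 CPM of the list stood at 6.06, 6.35 and 5.26 in the WT libraries and 6.12, 6.37 and 6.34 in the KO libraries, lowest in WT replicate 3 as for Zfp36.

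Transcripts grouped by the printed letters alone had median fold changes near that of all genes. The 1074 tested genes whose 3′ UTR held TTATTTATT had a median log2 fold change of 0.02, with 564 positive and 510 negative, beside a median of 0 over the 13441 tested genes with a 3′ UTR. The 4001 genes with TATTTAT and the 3496 with TGTANATA also had a median of 0.02. By edgeR 0 genes were called in each set, and 21, 92 and 85 had an unadjusted p under 0.05, beside 299 of the 13441. KO lay wholly above WT for 44 genes with TTATTTATT and wholly below for 23, beside 433 and 401 of the 13441. The same counts were 163 and 110 with TATTTAT and 139 and 93 with TGTANATA, so more genes lay above than below for each motif.

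The other machinery of decay and repression was tested as 7 lists, and edgeR called 0 genes of any in either direction. Of 27 further AU-rich element and stability proteins tested, 14 were positive and 13 negative (median 0.04). Zc3h12a, an endonuclease that degrades inflammatory mRNAs, had a log2 fold change of 1.07 (SE 0.61), from 1.65 CPM in WT replicate 3 to 15.9 CPM in KO replicate 2, and Hnrnpc -0.30 (SE 0.20). Of 35 storage granule and repression proteins, 22 were positive and 13 negative (median 0.04), with Cpeb1 and Cpeb3, which bind cytoplasmic polyadenylation elements, at 0.31 (SE 0.17) and 0.79 (SE 0.50). Of 18 deadenylation genes, 9 were positive and 9 negative (median 0.02). Cnot3, a subunit of the CCR4-NOT deadenylase, was at 29.5, 15.3 and 14.8 CPM in the WT libraries and 39.2, 40.2 and 24.9 CPM in the KO libraries, and was the 1 member of these lists with an unadjusted p under 0.05 (log2 fold change 0.81, SE 0.34, unadjusted p 0.0476, adjusted p 0.99998 in edgeR). Its groups overlapped, and 2.09% of all 18832 genes tested had an unadjusted p under 0.05 in edgeR. The catalytic subunit gene Cnot6l had -0.17 (SE 0.13). Of 17 genes of decapping and decay from the 5′ end, 6 were positive and 11 negative (median -0.04), with the exonuclease gene Xrn1 at 0.25 (SE 0.14) and Lsm1 at -0.22 (SE 0.15). Of 16 RNA exosome genes tested (Skiv2l2 on that list is an older symbol of Mtrex), 6 were positive and 10 negative (median -0.06), with Exosc9 at -0.50 (SE 0.24) and Ttc37 at -0.20 (SE 0.17). Of 15 genes of nonsense-mediated and Staufen-mediated decay, 10 were positive and 5 negative (median 0.03), with Eif4a3 at -0.24 (SE 0.18) and Smg5 at 0.21 (SE 0.17). Of 15 genes around p38 and MK2, the kinases that inactivate tristetraprolin, 11 were positive and 4 negative (median 0.16), with Mapk14, which encodes p38 alpha, at 0.29 (SE 0.15) and its activator Map2k3 at 0.34 (SE 0.24). Edc3, Edc4 and Patl1 stand on both the storage and the decapping list.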

How the data were processed

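The authors deposited raw HTSeq read counts for each library, in 49652 gene rows and 5 summary rows; the latter entered neither library sizes nor tests. The submitters' processing notes name STAR 2.6.0c, HTSeq 0.6.1p2, Trim Galore 0.5.0 with cutadapt 2.5, DESeq2 and edgeR, and build GRCm38; annotation and strand setting were not given in the sources used. The no-feature row held 11.15% to 17.02% of reads per library, ambiguous reads 1.21% to 1.42% and reads aligned more than once 14.82% to 24.57%. Symbols, lengths and 3′ UTRs came from GENCODE M21 (GRCm38), which matched 49399 rows by ID without version.

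KO was compared with WT by edgeR 4.0.16 (quasi-likelihood, robust, TMM, filterByExpr, no covariate; R 4.3.3), with Benjamini-Hochberg adjustment over 18832 genes and a call at an adjusted p under 0.05. SE is the absolute log2 fold change over the square root of F, and intervals are 95%. Log2 CPM for profiles, list means and SDs used a prior count of 2. DESeq2 1.42.0, limma 3.58.1 voom and other alternatives are in the closing section. Scripts were tested on simulated counts. Sequences came from GENCODE transcripts and RefSeq promoter windows; the promoter motifs were added after the values were seen.

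The 9 members and all lists were chosen with earlier results of these data known. By rule, named genes are drawn from the 9, Opa1, 5 bound transcripts, the 2 list members with the smallest p (or called), the 2 most abundant of each marker list and the 2 closest profiles per member; Xist, Ddx3y and genes named as absent, shared between lists or antisense were added after their values were seen, as were genes in the closing section. One gene of a list is not reported here by name.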

Additional observations from a re-analysis of the deposited data

How the results depend on the processing

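Every regulator had at least 1182 reads in each library. Called genes numbered 0 under every edgeR alternative, in limma voom and with each library left out, and 25 in DESeq2; the cause was not tested. Called regulators numbered 0 under every alternative run. An unadjusted p under 0.05 was reached by 393 genes, by 864 with no filter on low counts, by 629 with the no-feature share as covariate, by 855 in DESeq2 and by 324 to 818 with a library left out. Zfp36, Hnrnpd and Khsrp kept a positive fold change under all 13 alternatives (0.35 to 1.86, 0.01 to 0.38 and 0.06 to 0.24 with a library left out). With a library left out the sign turned for Zfp36l1 (-0.15 to 0.47), Zfp36l2 (-0.08 to 0.83), Elavl1 (-0.07 to 0.24), Ddx6 (-0.21 to 0.04), Stau1 (-0.07 to 0.01) and Pum2 (-0.15 to 0.04), and that of Zfp36l1 also with the no-feature share as covariate (-0.03). For Opa1 the leave-one-out values were -1.38 to -0.87.

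Whether replicate numbers pair the libraries is not settled. Deviations of same-numbered libraries correlated at 0.245, 0.105 and -0.0721. KO replicates 1 and 2 correlated best with the WT library of their own number. KO replicate 3 correlated best with the library labelled WT replicate 2, at 0.207. With a replicate block edgeR called 0 genes, 515 had an unadjusted p under 0.05, the log2 fold change of Opa1 was -1.07 and that of Zfp36 was 1.06. The median Zfp36 to Elavl1 factor was 25.6 on exon length, 17.6 on the longest transcript and 8.75 on coding length.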

Other observations

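Other genes of related function, chosen after their values were seen, also ranged from steady to variable. Tia1 and Tial1, translational repressors of stress granules, had SDs of log2 CPM within groups of 0.09 and 0.15. Stau2, the paralog of Stau1, was less even, at 13.1, 16.7 and 29.8 CPM in the WT libraries and 17.1, 17.9 and 23.7 CPM in the KO libraries (SD 0.47). Dusp1, a phosphatase that switches off p38 and is itself an immediate early gene, was at 1761, 3569 and 1093 CPM in the WT libraries and 1475, 2975 and 3311 CPM in the KO libraries, a log2 fold change of 0.27 (SE 0.47). The groups overlapped for each of these genes, and edgeR's adjusted p was 0.99998.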
